A study of Homo sapiens with 6 samples.

Results

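The 10 genes described here encode AP-1 subunits and related immediate early factors, namely FOS, FOSB, FOSL1, FOSL2, JUN, JUNB, JUND, EGR1, MAFF and IER3. They were picked by symbol from a table of 20030 genes, and all 10 had enough counts to be among the 12369 genes tested. The RNA came from HepG2, an established human hepatoma line, infected with a lentiviral pLKO.1 vector that expressed a hairpin against KIF11 in 3 libraries (sh-KIF11) and a control hairpin in the other 3 (sh-ctrl). Such a short hairpin RNA (shRNA) directs cleavage of the matching mRNA, and KIF11 is the kinesin motor that pushes spindle poles apart in mitosis. Both groups thus carried a viral vector and an shRNA. The study used the pair to ask which transcripts change when KIF11 is low, in work on senescence of hepatoma cells. How many different hairpins against KIF11 were used for these libraries is not given in the sources used here. Nor do the labels say that the 3 libraries of a group came from separate cultures, so each p-value measures only the spread between these libraries, which may be technical.

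AP-1 is a dimer of basic leucine zipper (bZIP) proteins. JUN proteins pair with each other or with FOS proteins, whereas FOS proteins need a JUN partner, and the dimers bind TGACTCA or, mostly with partners of the ATF family, TGACGTCA. FOS, FOSB, JUN, JUNB and EGR1 are classical immediate early genes, transcribed within minutes of serum, growth factors or stress through MAP kinases, and their mRNAs are short-lived. FOSL1 and FOSL2 follow later and stay up for longer, and JUND is present at a more even level in resting cells. In hepatocytes JUN is known for its part in regeneration and in liver tumours.

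The libraries held 18167773 to 19583282 counts each. Levels are given as CPM (counts scaled to library size with TMM factors) when the same gene is compared between libraries, and as FPKM (fragments per kilobase of transcript, scaled to library size by the authors) when different genes are compared. A count of 0 allows up to 3 counts, or 0.145 to 0.178 CPM depending on the library, for counting error only. KIF11 itself had 1976, 2088 and 2039 counts (sh-ctrl) against 1448, 1478 and 1240 (sh-KIF11), a log2 fold change of -0.75 (standard error 0.0573). Of the genes tested with edgeR's quasi-likelihood test, 8548 (69.1%) had an adjusted p under 0.05, with 4254 higher and 4294 lower in sh-KIF11. This split depends on scaling. With library totals alone the median of all genes moved from 0.00 to 0.24 on the log2 scale and the split became 6621 higher and 2373 lower, and limma on log2(FPKM + 1) gave 5635 higher and 2596 lower. Log2 fold changes from the edgeR fit are thus set against the median tested gene, whereas FPKM values are not centred in this way and their median log2 change was 0.12 on log2(FPKM + 1). Of 8 hepatocyte markers 7 were lower in sh-KIF11 and 0 higher, with a median log2 fold change of -1.36 and a summed level of 31871 to 33420 CPM in sh-ctrl against 14116 to 15260 CPM in sh-KIF11. TF (-2.28), APOA1 (-1.92) and SERPINA1 (-1.57) fell most on the log2 scale. The 6 fibroblast markers summed to between 0.0561 and 0.554 CPM in sh-ctrl and between 0.145 and 0.709 CPM in sh-KIF11, and none was tested. Of the 6 blood and endothelial markers 3 were tested, of which CD68 was lower (log2 fold change -0.90) and VWF higher (1.01). The list summed to 80.6 to 91.1 CPM in sh-ctrl and 46.3 to 51.0 CPM in sh-KIF11. CD68 made up most of this sum, with 77.1 to 87.7 CPM in sh-ctrl and 41.1 to 46.0 CPM in sh-KIF11. PTPRC, CD3E and CDH5 had no more than 3 counts in any library.

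The AP-1 genes did not move as a block. JUN and FOSL1 rose by nearly the same log2 amount, JUNB rose less, JUND, MAFF and IER3 fell, and FOS, FOSB, FOSL2 and EGR1 did not pass the test. Altogether 6 of the 10 passed, a share near that of all tested genes (69.1%). The 3 that rose stand beside 34.4% of tested genes that were higher, and the 3 that fell beside 34.7% that were lower. In each of the 6 the libraries of both groups did not overlap, as in 71.2% of tested genes (35.3% higher and 35.8% lower in sh-KIF11). None of the 10 reached a 2-fold change in this fit, whereas 11.7% of tested genes were called with at least that change. JUN and FOSL1 were close to it, and both passed it with library totals alone (log2 fold change 1.17 for each), upper-quartile factors, limma on either FPKM scale and without the first sh-ctrl library. The count of called members was thus not above the background, and what follows describes how the members differed from each other.

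**Figure D1:**
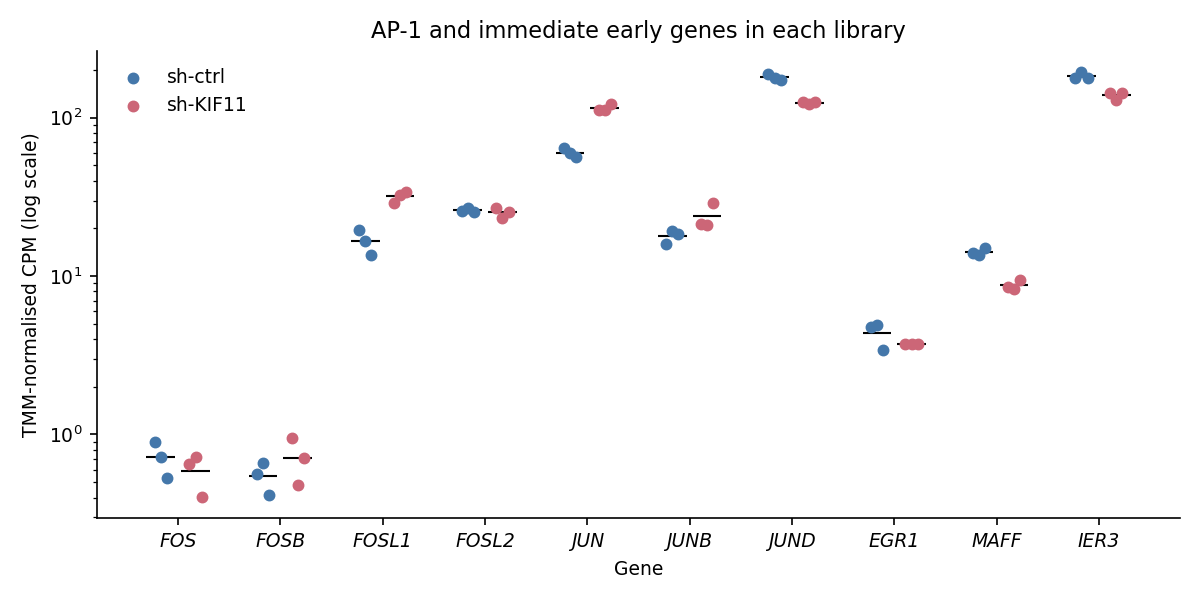
TMM-normalised CPM (log axis) of each of the 10 genes in each library, with 3 sh-ctrl (blue) and 3 sh-KIF11 (red) points per gene and a black line at the group mean. JUN and FOSL1 sit higher in every sh-KIF11 library, JUND, MAFF and IER3 sit lower, and the points of FOS, FOSB, FOSL2 and EGR1 overlap.

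Windows of 250 bases before the RefSeq transcription start (GRCh38.p14) were read for the 8 members present in the promoter table, FOSL1 and IER3 not being among them. The windows below are those of the JUN genes, of MAFF and of EGR1. Those of the JUN genes and MAFF are shown because these genes changed in opposite directions. That of EGR1 is shown for its matches to the element of serum response factor. All windows are written 5′ to 3′ on the strand of the gene and end at the base before the start. Capitals mark each TGACATCA, TGACGTCA, TGACG or CArG box on either strand.
JUN: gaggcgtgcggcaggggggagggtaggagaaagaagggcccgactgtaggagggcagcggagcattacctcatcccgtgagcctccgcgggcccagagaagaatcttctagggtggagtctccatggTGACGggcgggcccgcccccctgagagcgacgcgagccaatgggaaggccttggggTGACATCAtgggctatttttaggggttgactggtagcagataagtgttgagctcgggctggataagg
JUNB: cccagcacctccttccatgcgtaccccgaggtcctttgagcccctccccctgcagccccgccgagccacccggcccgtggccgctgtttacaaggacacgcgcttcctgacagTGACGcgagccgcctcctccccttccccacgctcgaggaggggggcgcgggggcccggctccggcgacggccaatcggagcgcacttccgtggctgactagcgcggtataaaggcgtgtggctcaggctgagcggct
JUND: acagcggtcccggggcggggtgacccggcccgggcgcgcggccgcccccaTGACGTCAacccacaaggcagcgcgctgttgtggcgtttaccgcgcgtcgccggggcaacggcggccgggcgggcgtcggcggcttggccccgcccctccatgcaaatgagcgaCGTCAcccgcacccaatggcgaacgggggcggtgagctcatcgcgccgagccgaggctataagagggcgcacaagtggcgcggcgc
MAFF: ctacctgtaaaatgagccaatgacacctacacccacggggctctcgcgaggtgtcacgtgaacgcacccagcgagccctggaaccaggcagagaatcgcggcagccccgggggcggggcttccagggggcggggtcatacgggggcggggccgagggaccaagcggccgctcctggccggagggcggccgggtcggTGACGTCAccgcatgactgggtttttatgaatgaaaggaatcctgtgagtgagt
EGR1: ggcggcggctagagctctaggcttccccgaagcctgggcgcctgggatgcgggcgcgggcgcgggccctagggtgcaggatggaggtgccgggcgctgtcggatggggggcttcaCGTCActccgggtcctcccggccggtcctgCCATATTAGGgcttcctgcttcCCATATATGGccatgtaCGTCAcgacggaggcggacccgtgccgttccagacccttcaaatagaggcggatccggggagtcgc

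These windows are chr1:58784048-58784297 (minus strand) for JUN, chr19:12791236-12791485 (plus) for JUNB, chr19:18281623-18281872 (minus) for JUND, chr22:38201744-38201993 (plus) for the first of the 2 MAFF starts in the table and chr5:138465229-138465478 (plus) for EGR1. The JUN window had TGACATCA, a variant AP-1 and ATF element, from 67 to 60 bases before the start. JUND had TGACGTCA from 200 to 193 bases before the start and MAFF had it from 54 to 47 in this first window. The second MAFF window, not shown, had neither TGACGTCA nor TGACG. EGR1 had a pair of CArG boxes, the element bound by serum response factor, from 105 to 96 and from 83 to 74 bases before the start. Searched on both strands, TGACGTCA was in 1.65% of 35116 promoter windows of this length, TGACATCA in 2.37% and the CArG box in 1.16%. The shorter TGACG, which lies within TGACGTCA, was in a window of 8 of the 8 members and in 21.2% of all windows. TGACTCA was in 0 of the 8 and in 4.20% of all. Members that rose (JUN, JUNB), fell (JUND, MAFF) or did not pass the test (FOS, FOSB, FOSL2, EGR1) all had TGACG, so its presence did not separate them. A match describes letters in a window and is not evidence of binding.

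Among the JUN genes, JUN and JUND changed in opposite directions. JUN, the founding AP-1 subunit, lies on chromosome 1 of GRCh38 from 58780788 to 58784327 as a single exon and overlaps no other annotated gene. It had 64.3, 59.5 and 56.3 CPM (sh-ctrl) against 112, 112 and 123 CPM (sh-KIF11). Every sh-KIF11 library was above every sh-ctrl library, by a wide gap relative to the spread within either group. The mean rose from 60.0 ± 4.01 to 116 ± 6.39 CPM (SD, n = 3 libraries each), and the log2 fold change was 0.94 (95% interval 0.83 to 1.06, edgeR adjusted p = 4.92e-18, Benjamini-Hochberg). Its change was larger in size than that of 87.1% of tested genes.

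JUND, the subunit usually present in resting cells, had 188, 178 and 173 CPM (sh-ctrl) against 126, 122 and 125 CPM (sh-KIF11). The groups did not overlap, and the sh-KIF11 libraries were close to each other (125 ± 2.08 CPM, against 180 ± 7.65 CPM in sh-ctrl, SD, n = 3 each). The log2 fold change of JUND was -0.53 (95% interval -0.63 to -0.43, edgeR adjusted p = 3.22e-12). Its size depended on scaling, at -0.24 with limma on log2(FPKM + 1) and -0.30 with library totals alone, and it passed the test in both. JUND lies on chromosome 19 from 18279760 to 18281622 and overlaps no other annotated gene.

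JUNB, an AP-1 subunit that often opposes JUN at growth genes, had 16.0, 19.3 and 18.5 CPM (sh-ctrl) against 21.5, 21.0 and 28.9 CPM (sh-KIF11). The third sh-KIF11 library stood above the other two. The mean was 17.9 ± 1.70 CPM for sh-ctrl against 23.8 ± 4.47 CPM for sh-KIF11 (SD, n = 3 each), with a log2 fold change of 0.41 (95% interval 0.20 to 0.61, edgeR adjusted p = 0.000422). Without that library the change of JUNB was 0.24 and the adjusted p from edgeR was 0.0327. With library totals alone the change was 0.64. JUNB lies on chromosome 19 from 12791496 to 12793315 as a single exon. HOOK2 is annotated over the same interval on the other strand, and the strand setting of the counting is not given in the sources used here.

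In the FOS family FOSL1 was the member that rose. FOSL1 (also called FRA1) lacks the strong activation domain of FOS and is known for long-lasting expression in growing and invasive cells. It had 19.5, 16.7 and 13.7 CPM (sh-ctrl) against 28.99, 32.6 and 34.1 CPM (sh-KIF11). The groups were far apart, although the sh-ctrl libraries themselves differed by more than those of JUN relative to their mean. Group means were 16.6 ± 2.91 and 31.9 ± 2.61 CPM (SD, n = 3 each) with a log2 fold change of 0.94 (95% interval 0.75 to 1.13, edgeR adjusted p = 9.07e-12), larger in size than 87.0% of tested genes. FOSL1 lies on chromosome 11 from 65892049 to 65900573 and overlaps no other annotated gene.

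FOSL2 (FRA2), its closest relative in structure and timing, had 25.9, 26.8 and 25.5 CPM (sh-ctrl) against 26.8, 23.4 and 25.5 CPM (sh-KIF11). The groups overlapped. The log2 fold change of FOSL2 was -0.04 (95% interval -0.21 to 0.12, edgeR adjusted p = 0.630). Its direction depended on scaling. It was 0.03 with upper-quartile factors, 0.09 with limma on log2(FPKM + 1), and 0.19 with library totals alone, where it passed the test (adjusted p = 0.0339, edgeR). FOSL2 lies on chromosome 2 from 28392448 to 28417312, with the antisense gene FLJ31356 over part of it.

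FOS and FOSB, the members with the fastest induction, were near the limit of what these libraries can compare. FOS had 16, 13 and 9 counts (sh-ctrl) against 13, 15 and 8 (sh-KIF11). FOSB had 10, 12 and 7 counts (sh-ctrl) against 19, 10 and 14 (sh-KIF11). Both genes were at under 1 CPM in each library and the groups overlapped. The log2 fold change was -0.27 for FOS (95% interval -1.09 to 0.55, edgeR adjusted p = 0.565) and 0.37 for FOSB (95% interval -0.47 to 1.21, edgeR adjusted p = 0.440). At this depth a change of the size seen for JUN lies inside the interval of FOSB, and a fall by that amount lies inside the interval of FOS. FOS lies on chromosome 14 from 75278774 to 75282230, and FOSB on chromosome 19 from 45467995 to 45475179, where ERCC1 overlaps it on the other strand.

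The remaining factors bind other elements or act outside the nucleus. MAFF is a small MAF protein, which has a bZIP domain but no activation domain and pairs with itself or with NRF2 and its relatives at antioxidant response elements. It had 13.9, 13.5 and 14.99 CPM (sh-ctrl) against 8.57, 8.26 and 9.43 CPM (sh-KIF11). The groups did not overlap, and MAFF had the most negative log2 fold change of the 10 genes, -0.69 (95% interval -0.91 to -0.47, edgeR adjusted p = 4.15e-07). It was -0.38 with limma on log2(FPKM + 1) and -0.46 with library totals alone, past the threshold in both. MAFF lies on chromosome 22 from 38200767 to 38216511 and overlaps PLA2G6 on the other strand.

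IER3, an immediate early gene whose product acts on cell survival and on ERK signalling, had 178, 194 and 178 CPM (sh-ctrl) against 143, 129 and 144 CPM (sh-KIF11). Without overlap the mean fell from 183 ± 9.61 to 139 ± 8.16 CPM (SD, n = 3 each), and IER3 had a log2 fold change of -0.40 (95% interval -0.51 to -0.30, edgeR adjusted p = 9.86e-09). With library totals alone the change of IER3 was -0.17 and its adjusted p from edgeR was 0.00352. IER3 lies on chromosome 6 from 30743199 to 30744554, and the antisense gene IER3-AS1 overlaps it.

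EGR1, a zinc finger factor induced through serum response factor, had 85, 89 and 58 counts (sh-ctrl) against 75, 77 and 74 (sh-KIF11). In CPM the third sh-ctrl library (3.44) lay below the sh-KIF11 libraries (3.74, 3.72 and 3.75) and the other two (4.76 and 4.93) above them. The log2 fold change of EGR1 was -0.23 (95% interval -0.60 to 0.13, edgeR adjusted p = 0.255). It lay between -0.38, without that sh-ctrl library, and 0.00, with library totals alone, and passed the test in none of the 15 other settings. EGR1 lies on chromosome 5 from 138465490 to 138469315 and overlaps no other annotated gene.

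**Figure D2:**
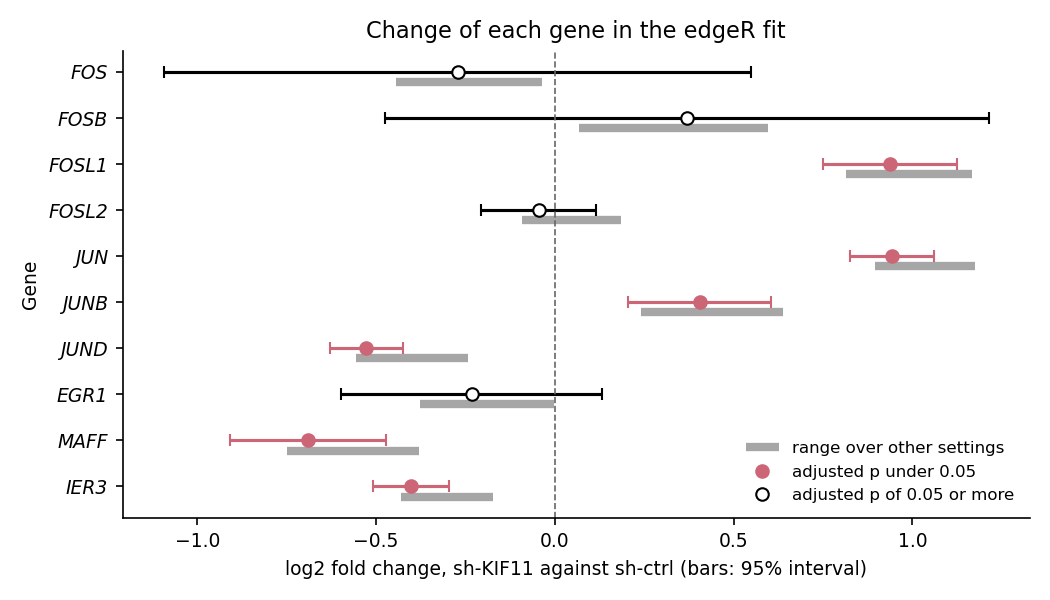
Log2 fold change (sh-KIF11 against sh-ctrl, horizontal axis) of each gene in the edgeR fit with its 95% interval, filled where the adjusted p was under 0.05. The grey bar under each point spans the values over the other settings. The interval of JUN (0.83 to 1.06) and that of JUND (-0.63 to -0.43) lie on opposite sides of 0, and the grey bar of FOSL2 crosses 0.

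Per length of transcript, IER3 and JUND were the most abundant of the 10 in both groups. In sh-ctrl the order of mean FPKM was IER3 (138), JUND (102), JUN (16.8), JUNB (7.41), FOSL1 (5.48), MAFF (4.08), FOSL2 (2.24), EGR1 (1.21), FOS (0.306) and FOSB (0.104), and no neighbours in it overlapped between libraries. In sh-KIF11 FOSL1 (12.1 FPKM) had moved beside JUNB (11.7 FPKM) and the libraries of these genes overlapped, as did those of FOS (0.274 FPKM) and FOSB (0.158 FPKM). The other places in the order were the same, with JUN at 37.3 FPKM, JUND at 85.8 FPKM and IER3 at 120 FPKM.

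The make-up of each family was then compared as shares of its summed FPKM. JUN made up 13.9%, 13.3% and 12.7% of the JUN family across sh-ctrl and 27.1%, 27.5% and 28.4% across sh-KIF11. The share of JUND went the other way, from 80.8% ± 0.381 to 63.7% ± 1.87, while JUNB went from 5.89% ± 0.730 to 8.63% ± 1.24 (SD, n = 3 each). JUND thus remained the most abundant JUN transcript in all 6 libraries. The ratio of JUN to JUND was 0.165 ± 0.00699 for sh-ctrl against 0.434 ± 0.0233 for sh-KIF11 (SD, n = 3 each). The summed level of the family overlapped between the groups in CPM, at 257 ± 10.3 and 264 ± 11.7 CPM (SD, n = 3 each, exact permutation test, two-sided, p = 0.6), while its summed FPKM went from 126 ± 3.29 to 135 ± 5.04, a ratio of 1.07 that is below the shift of the median gene in FPKM.

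In the FOS family FOSL1 already held the largest share in sh-ctrl, at 69.7%, 66.0% and 66.1%, and it held 78.2%, 82.2% and 81.4% in sh-KIF11. The share of FOSL2 was 27.7% ± 2.49 in sh-ctrl and 16.5% ± 1.54 in sh-KIF11, and that of FOS 3.73% ± 0.503 and 1.85% ± 0.508 (SD, n = 3 each). FOSB held 1.27% ± 0.10 and 1.07% ± 0.379, with overlap between the groups (exact permutation test, two-sided, p = 0.5). The size of the rise of the whole family depended on the unit. It was 1.84-fold in summed FPKM (8.13 ± 1.02 to 14.95 ± 0.829) and 1.33-fold in summed CPM (43.9 ± 3.47 to 58.4 ± 1.93, SD, n = 3 each), where FOSL2 weighs more. The units also differ in scaling, since FPKM is not centred on the median gene, whose log2 change was 0.12 on log2(FPKM + 1). Every member of the FOS family had a higher ratio of sh-KIF11 to sh-ctrl in FPKM than in CPM. Part of the 1.84-fold rise thus reflects scaling. In FPKM the family's ratio to the JUN family went from 0.0644 ± 0.00664 to 0.111 ± 0.00490. Apart from the share of FOSB and the summed CPM of the JUN family, the groups did not overlap in any of these shares, sums and ratios, and each gave p = 0.1 in the exact two-sided permutation test, the smallest that 3 libraries against 3 allow. A share falls when another member rises, so the lower share of FOSL2 is not a lower level of FOSL2. Bulk RNA cannot tell more cells with a transcript from more transcript per cell.

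**Figure D3:**
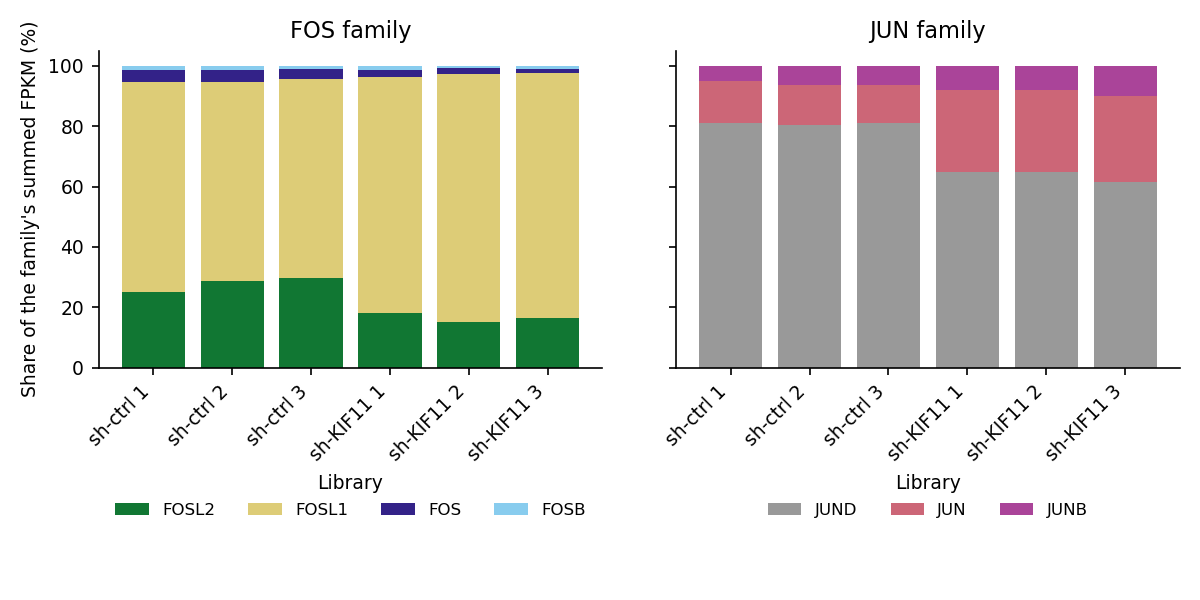
Share of the summed FPKM of the FOS family (left) and of the JUN family (right) taken by each member, in percent, with 1 stacked bar for each library. FOSL1 takes 66.0% to 69.7% in sh-ctrl and 78.2% to 82.2% in sh-KIF11, and JUN takes 12.7% to 13.9% and 27.1% to 28.4%.

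For each member the tested gene with the most similar profile over the 6 libraries was sought among 11744 genes, as the smallest root mean square distance between centred log2 CPM values. It was DBN1 for JUN (distance 0.0467), DIRAS1 for FOSL1 (0.0724), SH2D3A for JUNB (0.0762), SNRPA for JUND (0.00837), PDP2 for MAFF (0.0306) and SPIRE2 for IER3 (0.0124). For the members that did not pass the test it was GPR35 for FOSL2 (0.0208), TEN1 for EGR1 (0.0494), EFCAB12 for FOS (0.0901) and PRR22 for FOSB (0.124). These are descriptions over 6 libraries, with no test. JUND and IER3, the members with the highest counts, had the closest neighbours.

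Other bZIP proteins that pair with FOS, JUN or MAF members were split in direction. Of 12 listed, 10 were tested, 4 rose and 3 fell, near the shares over all tested genes (34.4% higher, 34.7% lower), with a median log2 fold change of -0.05 against 0.00. BATF, which pairs with JUN proteins in lymphocytes, had 29, 23 and 22 counts (sh-ctrl) against 117, 137 and 125 (sh-KIF11), a log2 fold change of 2.15 (standard error 0.202). The large MAF protein MAF rose by 1.86 and ATF3, a stress-induced partner of JUN, by 0.56 on the log2 scale. NRL (-0.65), the small MAF gene MAFK (-0.25) and ATF7 (-0.15, edgeR adjusted p = 0.0474) fell, and ATF7 kept this call in 5 of 15 other settings, DESeq2 not among them. With library totals alone the split was 5 higher and 1 lower, and with limma on log2(FPKM + 1) it was 5 and 0. Over all tested genes it was 6621 higher and 2373 lower, and 5635 and 2596. The deposited annotation marks 23 bZIP genes besides the members, a list added after the data were seen, of which 8 are partners already counted. Of the other 15, 14 were tested, 2 rose and 10 fell, among them NFE2 (-1.60), CEBPD (-1.32) and XBP1 (-1.28), with a median of -0.49. Library totals alone gave 4 higher and 8 lower there. NFIL3 (-0.89) and CREB1 (0.33), both in this set, are counted again below, among the immediate early genes and the factors above AP-1.

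Of 23 other immediate early genes listed, 16 were tested, 8 rose and 3 fell, and the median log2 fold change was 0.23. The number called was close to the 69.1% of all tested genes (34.4% higher, 34.7% lower). KLF4, among those that rose, had 3, 7 and 0 counts (sh-ctrl) against 25, 12 and 26 (sh-KIF11). It passed the low-count filter through sh-KIF11 alone. With at least 10 counts required in every library, 7 of 15 rose and 3 fell. CYR61, a matricellular protein gene, had 206, 205 and 197 counts (sh-ctrl) against 403, 461 and 430 (sh-KIF11), a log2 fold change of 0.89 (standard error 0.0928). PLK3, a polo-like kinase gene, rose by 0.84 and PPP1R15A (GADD34), which restores translation after stress, by 0.80. NR4A1, an orphan nuclear receptor, had 123, 125 and 109 counts (sh-ctrl) against 67, 49 and 60 (sh-KIF11), a log2 fold change of -1.21 (standard error 0.170). NFIL3 (-0.89) and ZFP36 (-0.53), whose product speeds the decay of AU-rich mRNAs, fell as well. ZFP36 kept its call in 13 of 15 other settings and lost it with limma on either FPKM scale. With library totals alone the split of the list was 11 higher and 3 lower, beside 6621 higher and 2373 lower over all tested genes. EGR2, EGR3, EGR4, NR4A2, NR4A3, KLF2 and ARC had too few counts to be tested.

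Of 23 kinases and factors that act above AP-1, 22 were tested, 6 rose and 10 fell, with a median log2 fold change of -0.19. The number called was near the background of 69.1% (34.4% higher, 34.7% lower). ELK3, a ternary complex factor that binds beside serum response factor, had 322, 302 and 307 counts (sh-ctrl) against 911, 891 and 955 (sh-KIF11), a log2 fold change of 1.37 (standard error 0.0789). RPS6KA5 (MSK1) rose by 0.79, from 23, 21 and 9 counts to 30, 45 and 30. This call was lost with DESeq2, with limma on log2(FPKM + 1) and without the third sh-ctrl or the second sh-KIF11 library. The gene was not tested where at least 10 counts were required in every library. MAP2K4, a kinase above JNK, rose by 0.56. RPS6KA3 (-0.68), MAP2K2 (-0.60) and MAPK3 (-0.55), which belong to the ERK cascade, fell. The balance turned with library totals alone (9 higher, 5 lower) and was 7 higher and 6 lower with limma on log2(FPKM + 1). For all tested genes these settings gave 6621 higher and 2373 lower, and 5635 and 2596.

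Of 17 inhibitors that MAP kinase signalling itself induces, 16 were tested, 5 rose and 4 fell, with a median log2 fold change of -0.08. Both counts lie below the shares over all tested genes (34.4% higher, 34.7% lower), yet a few members rose several-fold. DUSP5, a nuclear phosphatase of ERK, had 382, 335 and 354 counts (sh-ctrl) against 1697, 1538 and 1605 (sh-KIF11), a log2 fold change of 1.98 (standard error 0.0736). DUSP4, also a nuclear phosphatase, had 20, 20 and 14 counts (sh-ctrl) against 157, 138 and 167 (sh-KIF11), a log2 fold change of 2.89 (standard error 0.208). SPRED3 had 5, 6 and 6 counts (sh-ctrl) against 82, 78 and 93 (sh-KIF11), a log2 fold change of 3.67 (standard error 0.309). In these genes the groups were far apart, and the sh-ctrl counts of SPRED3 were close to the limit of 3, so that it passed the low-count filter through sh-KIF11 alone. With at least 10 counts in every library, 4 of 15 rose and 4 fell. DUSP9, a cytoplasmic phosphatase of ERK with 14447, 14383 and 12672 counts in sh-ctrl, fell by 0.79 on the log2 scale to 9377, 9093 and 9041 counts. DUSP7 (-0.33) and SPRY1 (-0.22, with overlapping libraries) fell as well, and SPRY1 kept its call in 7 of 15 other settings. With library totals alone the split was 9 higher and 1 lower, and with limma on log2(FPKM + 1) it was 7 and 1. All tested genes split into 6621 higher and 2373 lower, and into 5635 and 2596, in these settings.

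Genes known as AP-1 targets mostly rose. This list was chosen with earlier results of these data known, so its counts and median are a description and not a test. Of 23 listed, 16 were tested, 10 rose and 2 fell, and the median log2 fold change was 0.67 against 0.00 for all tested genes, of which 34.4% rose and 34.7% fell. MMP1, MMP3 and IL11 passed the low-count filter through sh-KIF11 alone. With at least 10 counts in every library 8 of 13 rose and 2 fell, with a median of 0.51. IL11, an interleukin of the IL-6 family, had 9, 9 and 8 counts (sh-ctrl) against 163, 181 and 167 (sh-KIF11), a log2 fold change of 4.08 (standard error 0.229). CXCL8, the chemokine interleukin-8, had 93, 103 and 105 counts (sh-ctrl) against 507, 585 and 757 (sh-KIF11), a log2 fold change of 2.42 (standard error 0.123). PLAU, the urokinase protease, had 18, 20 and 25 counts (sh-ctrl) against 116, 97 and 155 (sh-KIF11), a log2 fold change of 2.34 (standard error 0.229). All 3 were low in sh-ctrl and higher in every sh-KIF11 library. SPP1 (-0.29) was lower in the edgeR fit, and with library totals alone or with limma on log2(FPKM + 1) 13 targets rose and 0 fell. Over all 12369 tested genes these settings gave 6621 and 5635 higher and 2373 and 2596 lower.

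The collagenase MMP1, the gene in which the AP-1 element was described, was named after its values were seen. It had 1, 0 and 1 counts (sh-ctrl) against 33, 43 and 32 (sh-KIF11). No fold is given because sh-ctrl lay within the limit of 3 counts. VIM and CD44, targets with too few counts to be tested, were uneven within sh-ctrl. VIM had 18, 20 and 0 counts there and 3, 0 and 3 in sh-KIF11, and CD44 had 9, 11 and 0 counts against 6, 4 and 9. These transcripts were thus at 0 in the third sh-ctrl library. All 10 members had the same direction without that library as with it, 6 again passed the test, and among the targets 10 rose and 3 fell.

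**Figure D4:**
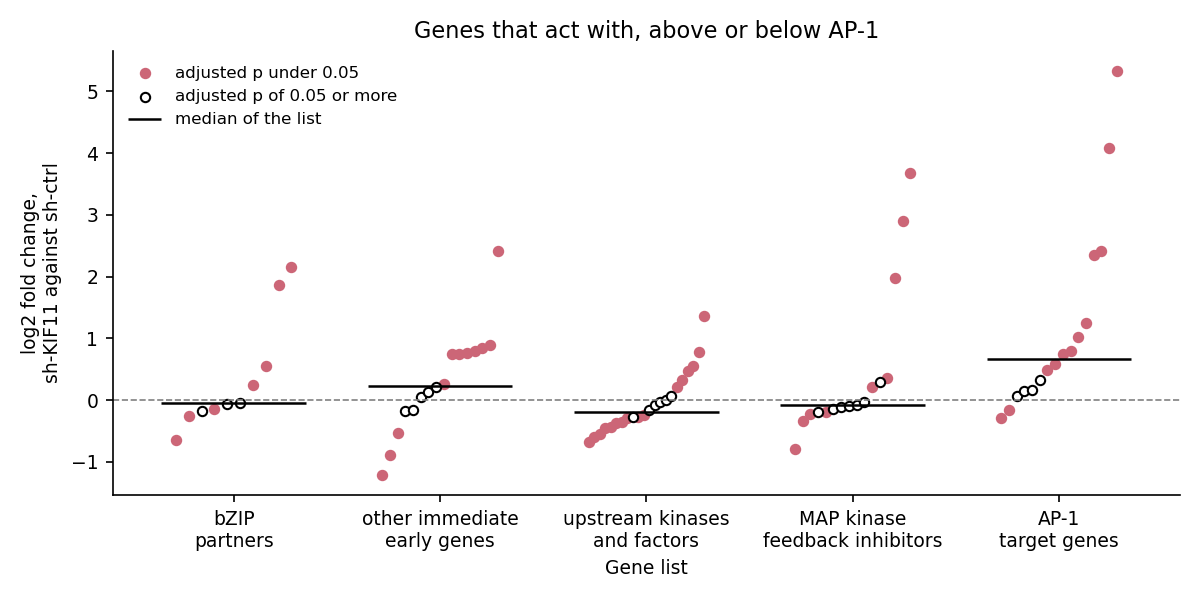
Log2 fold change (sh-KIF11 against sh-ctrl, vertical axis) of each tested gene in 5 lists, filled red where the adjusted p was under 0.05 and open otherwise, with a black line at the median of the list. The AP-1 targets have the highest median (0.67), and the upstream kinases and factors the lowest (-0.19). With at least 10 counts in every library the median of the targets was 0.51. The lists were chosen with earlier results of these data known.

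Heat shock genes, a measure of protein stress that can also induce FOS and JUN, were mostly lower. Of 8 tested 2 rose and 6 fell, with a median log2 fold change of -0.38, beside 34.4% higher and 34.7% lower over all tested genes. With library totals alone 2 rose and 5 fell, with a median of -0.15, beside 6621 higher and 2373 lower over all tested genes. HSPE1 (-0.66), HSPA1B (-0.55) and HSPD1 (-0.43) fell, and HSPH1 (0.41) and BAG3 (0.13, edgeR adjusted p = 0.0349) rose, the call of BAG3 being lost in 5 of 15 other settings, among them DESeq2. The hepatocyte markers given at the start moved with the same groups, and their part in the changes of the AP-1 genes was not tested.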

How the data were processed

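The authors sequenced poly(A) RNA of HepG2 cells from TruSeq stranded libraries and deposited raw counts per gene, not normalised, for 6 libraries. A second deposited table holds FPKM of the same genes, scaled by the authors to transcript length and library size. The submitters' processing notes list bcl2fastq 1.8.4, Trimmomatic, HISAT2 2.1.0, Cufflinks 2.2.1, HTSeq 0.9.1 and DESeq, and the build GRCh38, without parameters. The annotation release and the strand setting are not given in the sources used here. Knockdown columns are named shRNA only and were taken as sh-KIF11, the only shRNA in the labels besides the control.

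All 6 libraries were fitted with edgeR 4.0.16 in R 4.3.3 (18167773 to 19583282 counts). The filterByExpr function kept 12369 genes and left out 7661. TMM factors (0.922 to 0.926 in sh-ctrl, 1.08 to 1.09 in sh-KIF11) and a quasi-likelihood fit with the group as its only term followed. P-values are two-sided and were adjusted by the Benjamini-Hochberg method over all tested genes with a threshold of 0.05. Log2 CPM used a prior count of 2. Shares of FPKM were compared by exact permutation in scipy 1.17.1. Chi-square tests of counts within a group gave 2.68 to 8.11 per degree of freedom, with both values above 6 in pairs with the third sh-ctrl library. No pair was thus a library deposited again, and each counted as 1 sample, which does not make the cultures separate. The procedures were tested on simulated data. Alternatives were other scaling, other low-count filters, a replicate block, each library left out, DESeq2 1.42.0, limma 3.58.1 on log2(FPKM + 1) and log2(FPKM + 0.1), and CPM in place of FPKM for the shares.

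The members and lists were chosen with earlier results of these data known. Named are all members, KIF11, the nearest profile of each member and, from each list, up to 3 called genes at either end of the log2 fold changes with a mean of at least 1 CPM. A result that meets this rule is not reported here. MMP1, MMP3, KLF4, CREB1, VIM, CD44 and the untested genes were named after their values were seen. Gene positions come from GENCODE (GRCh38) and promoter windows from RefSeq (GRCh38.p14). Each position was matched by symbol.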

Additional observations from a re-analysis of the deposited data

How the results depend on the processing

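The 6 members that passed the test kept their direction and passed it in each of the 15 other settings. Scaling moved the sizes, and library totals alone put the median of all tested genes at 0.24 on the log2 scale. FOSL2 turned to a positive value with upper-quartile factors (0.034), library totals alone (0.19), limma on log2(FPKM + 1) (0.094), limma on log2(FPKM + 0.1) (0.13) and without the second sh-KIF11 library (0.0064), and leaving out 1 library gave it between -0.093 and 0.0064. Library totals alone gave 7 called members, and all other settings gave 6. With CPM in place of FPKM, which drops transcript length, the differences in share between the groups were 20.5 percentage points for JUN (14.3 with FPKM), -22.5 for JUND (-17.1), 16.9 for FOSL1 (13.4) and -16.3 for FOSL2 (-11.3), and that in the ratio of JUN to JUND was 0.593 (0.270). Without the low-count filter 2 fibroblast markers were called. Leaving out 1 library gave between 7975 and 8749 called genes. With limma on log2(FPKM + 0.1) 2597 genes were lower. Deviations of equally numbered libraries correlated at 0.0300, -0.0185 and -0.00253, so no shared effect of the replicate number was seen. With 3 libraries in each group this cannot tell whether the libraries were paired in culture. The replicate block gave 8607 called genes and the same number of called members, 6. Depth limits FOS, FOSB and EGR1 most, and intervals cover the spread between 3 libraries of each group.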
